A study of Mus musculus with 2 samples.

Results

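The genes described here are 4 mast cell granule proteases (Cma1, Mcpt4, Tpsb2 and Cpa3), 2 chains of the high-affinity IgE receptor (Fcer1a and Ms4a2) and Mcpt8, a protease named after mast cells that in mice is used as a basophil marker. These 7 genes were matched by symbol among the 55357 genes of each count matrix, and all 7 were found. They were read in single cells of tumours grown from 4T1 cells, a mouse triple-negative breast cancer line, in BALB/c mice. The AptCD4-LNT library came from mice given AptCD4-LNT, an agent dosed by cell number, in 3 doses of 5000000, 4000000 and 3000000 cells, with 3 days between doses. The Untreated library came from tumour-bearing mice given PBS. The mice were killed at day 9 and each library pools 3 tumours, so each group is 1 library in which single mice cannot be told apart. The genes were chosen by their UMI counts in these libraries, with earlier results known, and their difference between the libraries is given as a description. With no replicate library there is no test, and every interval is a 95% interval that covers counting error only.

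Mast cells and basophils both carry the high-affinity IgE receptor, which is built from an IgE-binding alpha chain (Fcer1a), a signal-amplifying beta chain (Ms4a2) and a gamma chain (Fcer1g) that other myeloid cells use as well. When antigen crosslinks bound IgE, mast cells release granules that hold histamine, heparin-bound chymases and tryptases, and a carboxypeptidase. In mice, Cma1 and Mcpt4 encode chymases, Tpsb2 a tryptase and Cpa3 the carboxypeptidase of connective tissue mast cells, while Mcpt1 and Mcpt2 encode proteases of mucosal mast cells. Basophils are short-lived blood granulocytes with few of these proteases, and are a known source of interleukin 4.

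The start-site windows of 3 granule genes and of Mcpt8 are shown because the granule genes were found together in the same cells and Mcpt8 was not. Each window runs from 250 bases before to 50 bases after the start site in RefSeq (GRCm38.p6), 5′ to 3′ on the gene's own strand, which is the minus strand for all 4. They are chr14:55944626-55944925 for Cma1, chr14:56062261-56062560 for Mcpt4, chr3:20242132-20242431 for Cpa3 and chr14:56085148-56085447 for Mcpt8. Capitals mark GATAA, or TTATC where the match is on the other strand, which is 1 form of the letters bound by GATA factors. Shorter matches to GATA or TATC were not searched for and are not marked, and TATC occurs in the Mcpt8 window too. Gata2, a GATA factor that mast cells and basophils need, was detected in cells of both kinds below.
Cma1: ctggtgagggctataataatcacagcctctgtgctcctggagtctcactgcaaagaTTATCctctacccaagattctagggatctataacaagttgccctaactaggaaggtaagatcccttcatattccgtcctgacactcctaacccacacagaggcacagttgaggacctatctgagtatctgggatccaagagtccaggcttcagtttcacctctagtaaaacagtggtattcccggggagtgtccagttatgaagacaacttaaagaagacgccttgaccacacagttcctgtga
Mcpt4: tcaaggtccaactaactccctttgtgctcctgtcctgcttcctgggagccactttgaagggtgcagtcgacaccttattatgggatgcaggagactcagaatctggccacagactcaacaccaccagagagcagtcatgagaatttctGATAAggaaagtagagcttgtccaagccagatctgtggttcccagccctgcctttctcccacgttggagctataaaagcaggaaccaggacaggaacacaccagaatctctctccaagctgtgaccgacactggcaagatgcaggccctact
Cpa3: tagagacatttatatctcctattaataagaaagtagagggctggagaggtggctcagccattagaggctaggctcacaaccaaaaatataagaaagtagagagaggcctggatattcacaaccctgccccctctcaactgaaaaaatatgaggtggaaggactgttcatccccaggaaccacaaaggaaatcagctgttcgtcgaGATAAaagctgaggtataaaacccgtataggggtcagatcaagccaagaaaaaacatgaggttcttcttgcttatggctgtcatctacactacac
Mcpt8: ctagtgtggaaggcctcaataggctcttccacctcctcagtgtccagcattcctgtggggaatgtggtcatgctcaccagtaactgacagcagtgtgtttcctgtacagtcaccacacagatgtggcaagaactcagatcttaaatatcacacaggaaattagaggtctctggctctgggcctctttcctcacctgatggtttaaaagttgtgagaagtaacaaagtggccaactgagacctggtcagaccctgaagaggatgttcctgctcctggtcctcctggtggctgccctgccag
The windows of Cma1, Mcpt4 and Cpa3 each held 1 match and that of Mcpt8 held 0. Of the 6 members with a window in the table, 5 held a match, against 25.4% of all 32851 windows of this length. The matches are a description of letters and say nothing of binding.

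The libraries differed in size and depth. After filtering, 8853 AptCD4-LNT cells with a median of 8838 UMIs and 20001 Untreated cells with a median of 4652 UMIs were kept. UMIs are unique molecular identifiers, each counted as 1 captured transcript, and they summed to 98888023 in AptCD4-LNT and 131259762 in Untreated. No barcode was under 500 UMIs in either library, and 677 AptCD4-LNT cells (7.65%) and 2963 Untreated cells (14.8%) had fewer than 1000. The libraries shared 42 barcode sequences, none of them among the cells with 2 or more of the genes.

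Summed over whole libraries, the granule proteases stood far higher in the AptCD4-LNT library. Cma1 had 251 UMIs there and 4 in the Untreated library, a log2 ratio of 6.38 (5.01 to 8.27) in CPM (UMIs scaled to 1000000 per library). Mcpt4 had 106 UMIs against 1, a log2 ratio of 7.14 with a counting interval of 4.63 to 12.45. Tpsb2 had 119 UMIs against 5, a log2 ratio of 4.98 (3.72 to 6.63). The 4 granule genes were thus nearly absent from the Untreated library, which held more cells and more UMIs in all.

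Cpa3 had 116 UMIs in the AptCD4-LNT library against 6 in the Untreated library, a log2 ratio of 4.68 (3.52 to 6.16). The receptor chains were sparse in both. Fcer1a had 14 UMIs against 4, a log2 ratio of 2.22 (0.55 to 4.28), and Ms4a2 had 15 UMIs against 3, a log2 ratio of 2.73 (0.91 to 5.16). Mcpt8 ran the other way, with 383 UMIs (3.87 CPM) in AptCD4-LNT against 1190 (9.07 CPM) in Untreated, a log2 ratio of -1.23 (-1.40 to -1.06). Of the 7 genes, 5 had 20 or more UMIs over both libraries. Of those 5, 4 were at least 2-fold higher and 1 was at least 2-fold lower in AptCD4-LNT. Over all 20033 genes with 20 or more UMIs, 7.69% were 2-fold higher and 3.06% 2-fold lower, with a median log2 ratio of 0.08.

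**Figure D1:**
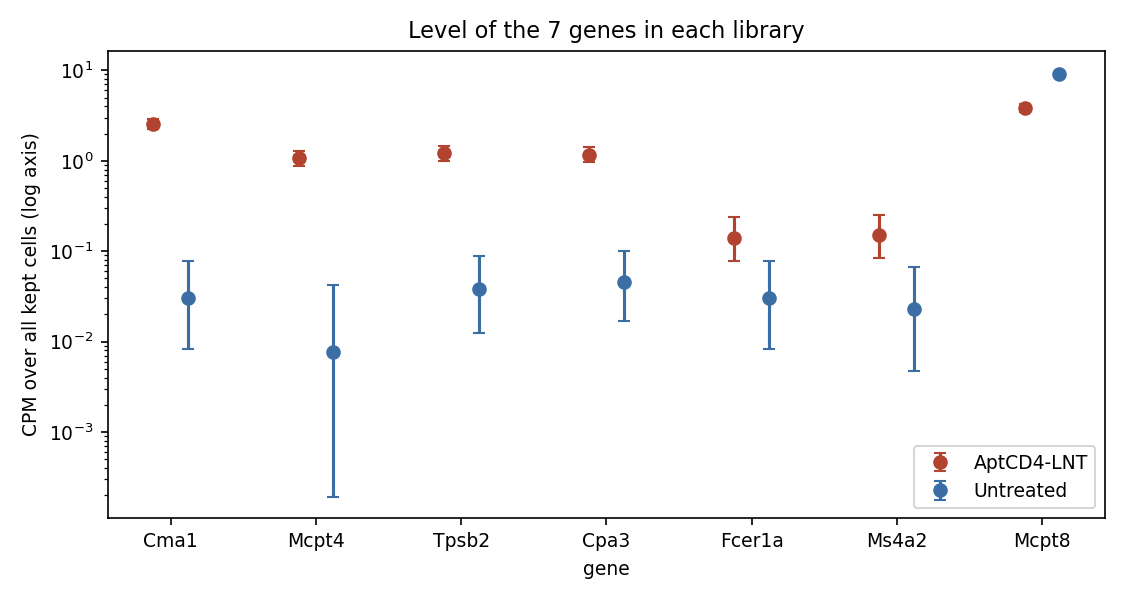
Level of each gene in each library in CPM over all kept cells, on a log axis, with exact 95% counting intervals (1 library per group). The granule genes and the receptor chains lie higher in AptCD4-LNT, by log2 ratios of 2.22 to 7.14, and Mcpt8 lies higher in Untreated.

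The UMIs of the 4 granule genes came from few cells, while those of Mcpt8 were spread over 159 AptCD4-LNT and 584 Untreated cells. Cells with 2 or more of the 7 genes numbered 15 in the AptCD4-LNT library, or 0.169% (0.0949 to 0.279%) of its cells. The Untreated library held 2, or 0.0100% (0.00121 to 0.0361%). The ratio of the shares was 16.9 (3.94 to 153). Cells with exactly 1 of the genes were common by comparison, with 195 (2.20%) in AptCD4-LNT and 598 (2.99%) in Untreated. Scrublet, a doublet caller, marked none of the 17 cells with 2 or more genes.

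These cells were sorted by rule. Cells with a UMI of Cma1, Mcpt4 or Tpsb2 and none of Mcpt8 are called granule-protease cells, and there were 9 in AptCD4-LNT (0.102%, 0.0465 to 0.193%) and 0 in Untreated, where a count of 0 allows a share of up to 0.0150% (3 counts as the floor). Cells with Mcpt8 and none of those 3 proteases, called Mcpt8 cells, numbered 3 in AptCD4-LNT and 2 in Untreated, a ratio of shares of 3.39 whose interval of 0.388 to 40.6 includes 1. In AptCD4-LNT, 2 further cells held both and 1 held neither.

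**Figure D2:**
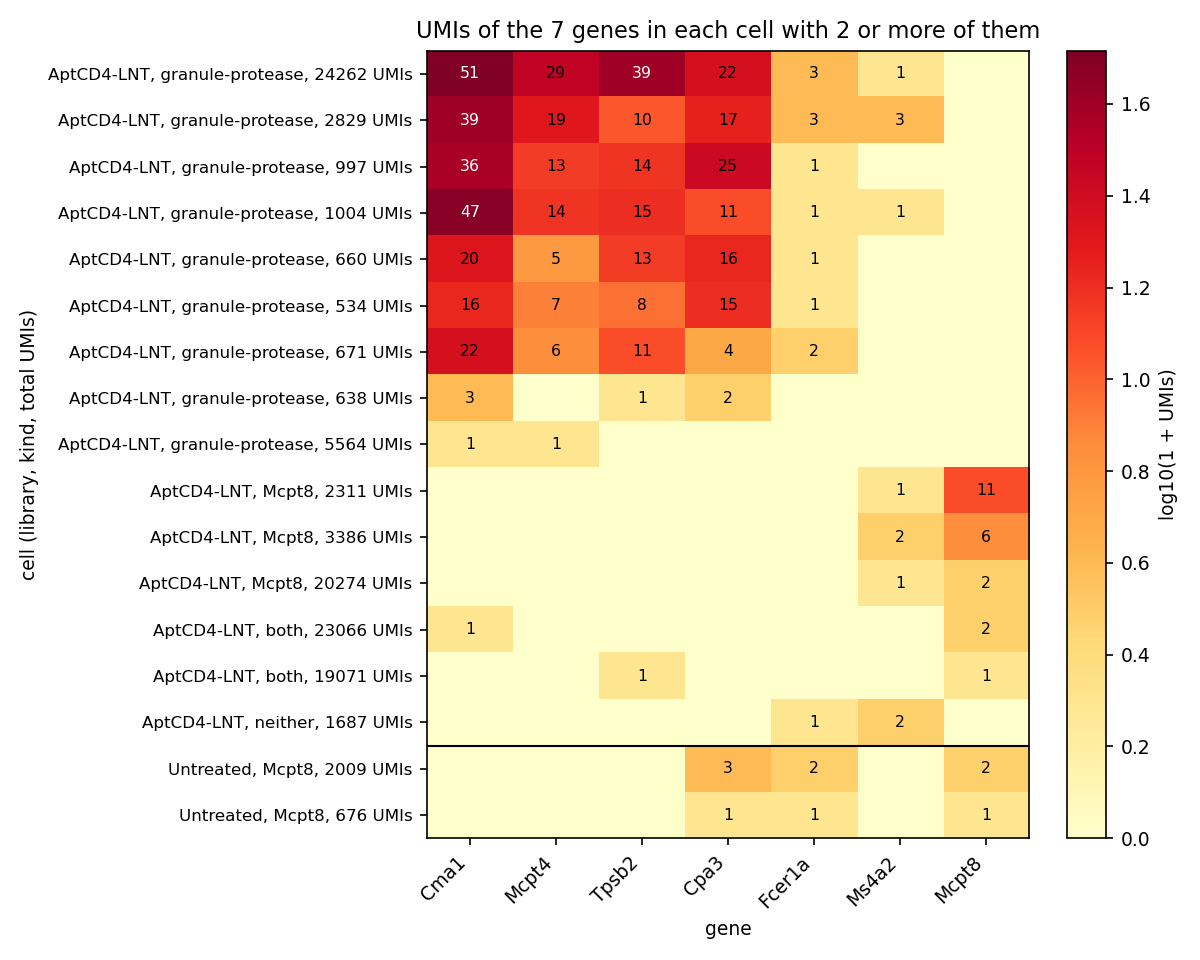
UMIs of the 7 genes (columns) in each of the 15 AptCD4-LNT and 2 Untreated cells (rows, with total UMIs) that held 2 or more of them. The colour is log10(1 + UMIs) and blanks are 0. In the 7 top rows, the cells with 5 or more of the genes, Cma1, Mcpt4, Tpsb2, Cpa3 and Fcer1a appear together, which that number of genes largely fixes. The blanks of Mcpt8 in granule-protease cells, and of Cma1, Mcpt4 and Tpsb2 in Mcpt8 cells, follow from how the kinds were defined.

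Of the 9 granule-protease cells, 7 held 5 or 6 of the genes at once, and no cell of the Untreated library did. In these 7 cells Cma1 lay between 16 and 51 UMIs with a median of 36, and Mcpt4 between 5 and 29 with a median of 13. Tpsb2 lay between 8 and 39 with a median of 13, and Cpa3 between 4 and 25 with a median of 16. Every one of the 7 thus carried all 4 granule transcripts in more than a single copy. The alpha chain Fcer1a was seen in all 7 at 1 to 3 UMIs and the beta chain Ms4a2 in 3 of the 7 at 1 to 3 UMIs. Mcpt8 was at 0 by definition, so holding 5 or 6 of the genes required nearly all of the others. Their presence together thus follows in large part from how these 7 cells were picked. The size of their counts was not part of the rule, but cells with higher counts of these genes meet it more easily.

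The depth of these cells was low in most. Of the 7, 5 had between 534 and 1004 UMIs in all, close to the smallest barcode total of 500, and the 7 genes made up 6.71 to 8.93% of the RNA counted in them. The cell with 2829 UMIs gave 3.22% of them to the 7 genes. The deepest, at 24262 UMIs, gave 0.598%, and it also held 28 UMIs of Krt8 and 93 of Krt18, keratins of the tumour epithelium, although it was not marked as a doublet. Whether emptier droplets held more such cells was not analysed here.

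The remaining 2 granule-protease cells were weaker, and lie just inside the limit of 2 genes. With 4 or more member UMIs required, 8 of the 9 were left. A cell with 638 UMIs held 3 of Cma1, 1 of Tpsb2 and 2 of Cpa3, plus 2 of Tpsab1, a second tryptase. A cell with 5564 UMIs held 1 UMI of Cma1 and 1 of Mcpt4, with 0 of Tpsab1, Kit, Hdc and Mrgprb1 and 71 UMIs of Srgn, the granule proteoglycan that many blood cells make. The 2 cells with both Mcpt8 and a granule protease had 1 or 2 UMIs of each, and with 23066 and 19071 UMIs in all they also held 34 and 31 UMIs of Krt8. Just outside the limit, a cell with 1 gene held a single UMI of it in 148 of 195 AptCD4-LNT and 444 of 598 Untreated cells.

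Genes that the selection did not use describe the granule-protease cells further. By a fixed rule, the genes most like the members were ranked by the share of their UMIs, over both libraries, that lay in the 9 cells, which held 0.0161% of all UMIs, among genes with 10 or more UMIs that were seen in 3 or more of the cells. Mrgprb1, a receptor gene of the Mrgpr family, led with 29 of 31 UMIs (93.5%). Tpsab1, the tryptase encoded beside Tpsb2, followed with 122 of 138 (88.4%), and Tph1, which starts serotonin synthesis, with 15 of 17 (88.2%). Mcpt2, with 200 UMIs or 98.0% of its total there, was in only 2 of the cells and so outside the rule. For the granule genes themselves the shares were 92.2% for Cma1, 91.8% for Cpa3, 89.5% for Tpsb2 and 87.9% for Mcpt4. These genes were used to pick the 9 cells, which raises their shares.

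The share then dropped steeply. Cyp11a1, the first enzyme of steroid synthesis, had 10.3% of its UMIs in the 9 cells and 4932438H23Rik had 10.0%. Gata2 had 6.56%, Il4 4.94%, Tespa1, a lymphocyte signalling gene, 2.96%, Kit, the stem cell factor receptor on which mast cells depend, 2.20%, and Adora3, an adenosine receptor, 2.07%. Most UMIs of each of these genes therefore lay outside the 9 cells. Tpsb2 and Tpsab1 are close in sequence, as are Mcpt1 and Mcpt2, so reads could be divided or lost between partners when they were counted.

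In the 7 cells with 5 or more of the genes, Tpsab1 lay between 4 and 60 UMIs and Mrgprb1 between 1 and 9. Kit was seen in 6 of them, at 17 UMIs in all, and Hdc, the enzyme that makes histamine, in 6, at 26 UMIs. Il1rl1, the receptor for the alarmin IL-33, was seen in 6 at 20 UMIs. The mucosal proteases were seen in 2 of these cells. The cell with 2829 UMIs held 60 UMIs of Mcpt1 and 61 of Mcpt2, and the deepest held 139 of Mcpt2 and 0 of Mcpt1. The other 5 of the 7 cells held 0 of both.

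The other genes of the pathway were taken from 7 fixed lists with 63 genes. Among 8 other mast cell proteases, 3 had 10 or more UMIs in the cells with 2 or more member genes, namely Tpsab1, Mcpt1 and Mcpt2. Among 12 receptor signalling genes the 3 were Fcer1g, Lyn, a kinase at the receptor, and Lat2, an adaptor below it. Fcer1g was seen in 8 of 9 granule-protease cells, but with 30878 UMIs in AptCD4-LNT and 52854 in Untreated it was a general myeloid transcript here. Among 12 genes of granule and lipid mediators 6 reached 10 UMIs, among 10 growth and activating receptors 5, among 8 transcription factors 3, among 10 cytokines 6 and among 4 ligands 1.

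At the level of whole libraries, 55 of the 63 genes had 20 or more UMIs, of which 14 were at least 2-fold higher and 2 at least 2-fold lower in AptCD4-LNT, with a median log2 ratio of 0.40. For comparison, a rise of at least 2-fold in AptCD4-LNT was seen in 7.69% of the 20033 genes that passed this UMI limit. A fall of that size was seen in 3.06% of them. By list, the proteases gave 3 of 3 higher. Mcpt2 had 202 UMIs in AptCD4-LNT against 2 in Untreated, a log2 ratio of 7.07 (5.20 to 10.12), and 139 of the 202 were in the deepest cell. Mcpt1 had 66 UMIs against 0, at least 29.2-fold higher when 3 counts are taken as the floor, and 60 of the 66 were in 1 cell. Of 12 receptor signalling genes 0 were higher and 1 was lower, the adaptor Lat, which T cells also use, at 101 UMIs against 419, a log2 ratio of -1.64 (-1.97 to -1.33).

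Genes higher by 2-fold in the other lists had most of their UMIs outside the cells with 2 or more member genes, with 1 exception. Il1rl1 had 3743 UMIs in AptCD4-LNT against 300 in Untreated, a log2 ratio of 4.05 (3.88 to 4.22), of which 0.519% lay in granule-protease cells. Its ligand Il33 had 6655 UMIs against 1006, a log2 ratio of 3.13 (3.04 to 3.23), and 0 UMIs in granule-protease cells. Kitl, the ligand of Kit, was below 2-fold, with 3347 UMIs against 2416, a log2 ratio of 0.88. Hdc was higher by 1.15 (1.09 to 1.21) on the log2 scale, with 0.253% of its UMIs in granule-protease cells, and Csf2, a myeloid growth factor, by 1.65, with 0 UMIs there. The exception was Mrgprb1, with 31 UMIs in AptCD4-LNT against 0 in Untreated, at least 13.7-fold higher with 3 counts as the floor. Il4 had 69 UMIs against 12, a log2 ratio of 2.93 (2.04 to 3.95), and Il13 had 52 against 8, a log2 ratio of 3.11 (2.03 to 4.39). Of the UMIs of both libraries, 35 of 81 for Il4 and 24 of 60 for Il13 lay in the cells with 2 or more member genes.

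**Figure D3:**
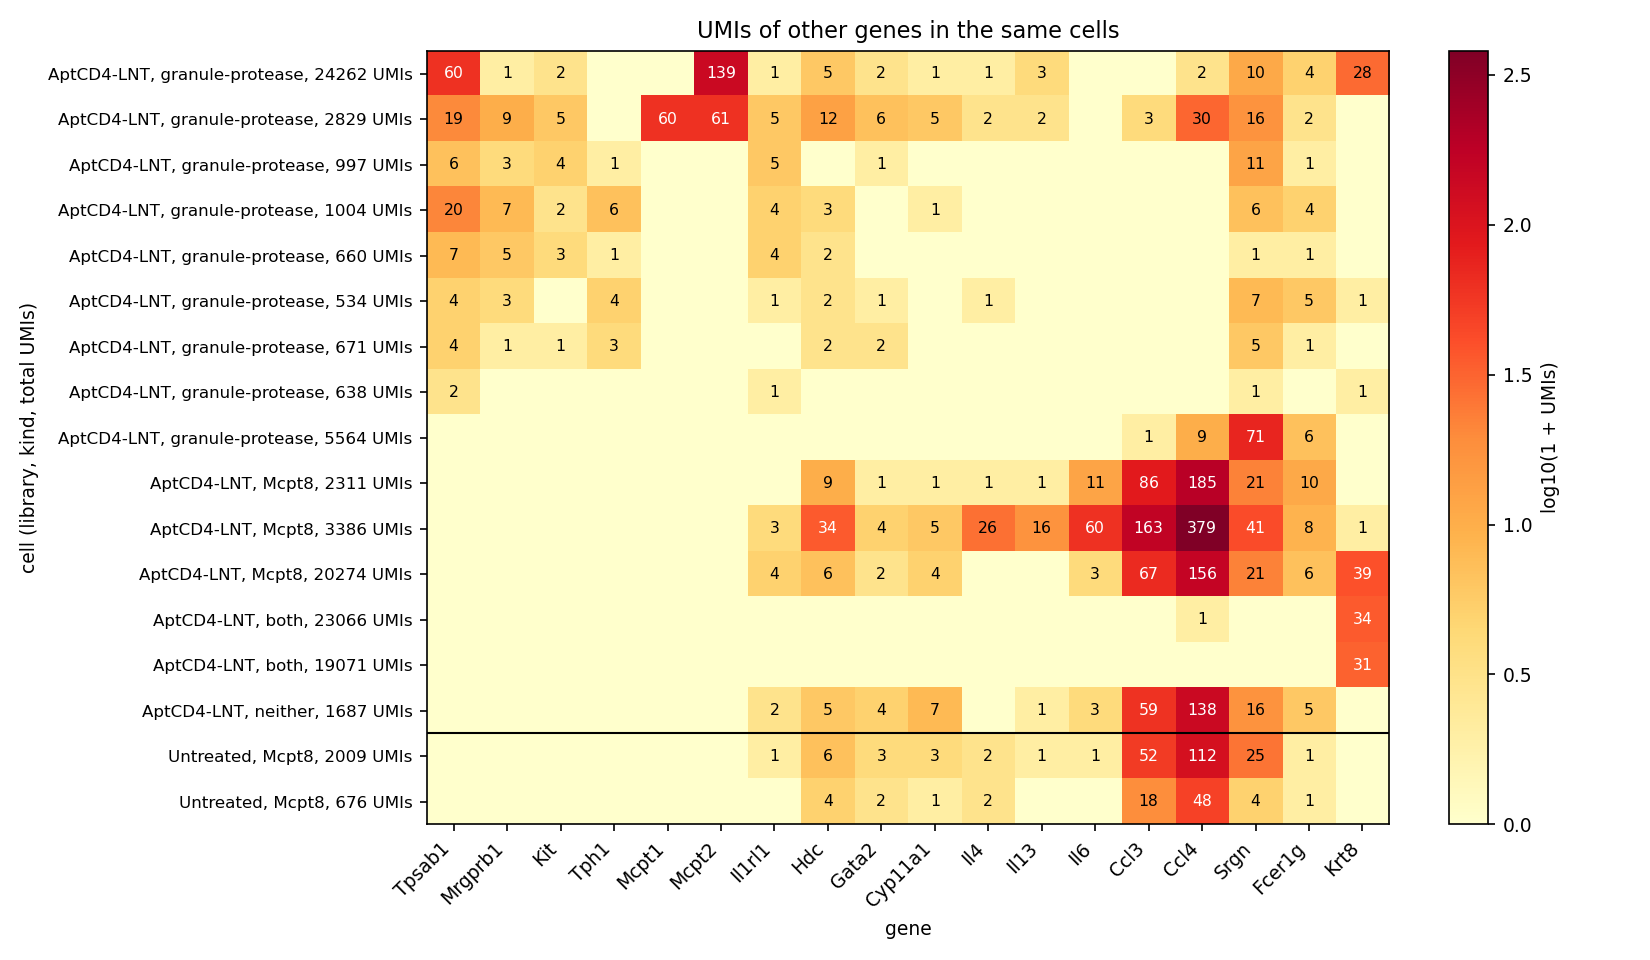
UMIs of 18 other genes in the same 17 cells, in the same row order, with colour as log10(1 + UMIs). Tpsab1, Mrgprb1, Kit and Tph1 appear in granule-protease cells and are blank in Mcpt8 cells, whereas Ccl3 and Ccl4 are high in all 5 Mcpt8 cells, at 18 to 163 and 48 to 379 UMIs.

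The Mcpt8 cells had another profile. Mcpt8 itself had 11, 6 and 2 UMIs in the 3 AptCD4-LNT cells and 2 and 1 UMIs in the 2 Untreated cells. Ms4a2 had 1, 2 and 1 UMIs in the AptCD4-LNT cells and 0 in both Untreated cells. Fcer1a had 0 UMIs in the 3 AptCD4-LNT cells against 2 and 1 in the Untreated cells, and Cpa3 had 0 in the 3 against 3 and 1. A second gene in each cell was required by the selection. It was the beta chain in AptCD4-LNT, and the alpha chain with Cpa3 in Untreated, at counts too low to call any of them absent.

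All 5 Mcpt8 cells held Hdc, at 9, 34 and 6 UMIs in AptCD4-LNT and 6 and 4 in Untreated, and all 5 held Gata2 and Cyp11a1. Il4 was seen in 4 of 5 and Il6, a cytokine with many sources, in 4 of 5. The chemokines Ccl3 and Ccl4 gave 386 and 880 UMIs in these 5 cells. Kit, Tpsab1 and Mrgprb1 were at 0 in all 5. Tpsab1 was seen in 8 of the 9 granule-protease cells, Mrgprb1 in 7 and Kit in 6. Prss34, a further basophil protease in mice, was seen in 1 of the 5 with 2 UMIs, and both libraries held no other UMI of it.

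Ranked by the same rule on the share of UMIs in the 5 Mcpt8 cells, which held 0.0125% of all UMIs, the nearest genes were Grm6, a glutamate receptor gene, with 5 of 11 UMIs (45.5%), Il4 with 31 of 81 (38.3%), Il13, its neighbour and partner cytokine, with 18 of 60 (30.0%) and Cyp11a1 with 14 of 68 (20.6%). Gata2 followed with 6.56%. Sytl3, Gm43123, Cldn1, Aqp9 and Serpina3f completed the 10, at 2.42 to 3.38%. For Mcpt8 the share was 1.40%, so nearly all of its RNA was elsewhere. A single AptCD4-LNT cell held 26 of the 31 Il4 UMIs and 16 of the 18 Il13 UMIs. The deepest Mcpt8 cell, with 20274 UMIs, also held 39 UMIs of Krt8.

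The cell with neither Mcpt8 nor a granule protease held 1 UMI of Fcer1a and 2 of Ms4a2 in 1687 UMIs. It also held 5 UMIs of Hdc, 4 of Gata2, 3 of Cd200r3, a basophil receptor, 7 of Cyp11a1, 59 of Ccl3 and 138 of Ccl4. Its Ccl3 and Ccl4 counts lay in the range of the Mcpt8 cells, and Il4, Kit, Tpsab1 and Mrgprb1 were at 0. Hdc, Gata2, Cyp11a1 and Cd200r3 were seen in some granule-protease cells as well. Counted by 8 basophil genes that are not members, cells with 4 or more of them and no granule protease numbered 9 in AptCD4-LNT (0.102%) and 6 in Untreated (0.0300%), a ratio of shares of 3.39 (1.08 to 11.6). Of the 9, 3 had epithelial or endothelial markers, and of the 6 none had, which left 6 cells in each library and a ratio of shares of 2.26 (0.604 to 8.45), an interval that holds 1. Among the 3 left out was the deepest Mcpt8 cell, with 20274 UMIs, which is counted among the Mcpt8 cells above. Of the 9 and 6 cells, 5 in AptCD4-LNT and 4 in Untreated held fewer than 2 of the 7 genes. With 3 or more of the 8 genes there were 26 against 14 cells, but 16 and 7 of them had epithelial, fibroblast or endothelial markers, since Hdc, Il6 and Itga2 were counted in those cells too.

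Outside the cells with 2 or more member genes, the granule proteases were present only as isolated counts. Cma1 had 15 such UMIs in AptCD4-LNT and 4 in Untreated, Mcpt4 had 12 and 1, Tpsb2 had 7 and 5 and Cpa3 had 4 and 2. No such cell held more than 1 UMI of any of the 4. Fcer1a had 1 UMI left in each library, and Ms4a2 had 4 in AptCD4-LNT, all in 2 monocyte-marker cells, and 3 in Untreated. Those 2 monocyte-marker cells also held Hdc, Gata2 and Cyp11a1, which are among the 8 basophil genes counted above. The 38 AptCD4-LNT and 12 Untreated UMIs of the 4 granule genes stood at 0.385 and 0.0914 CPM of the remaining RNA.

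In AptCD4-LNT the isolated granule counts stood at 0.266 CPM in epithelial-marker, 0.714 in fibroblast-marker, 0.638 in macrophage-marker and 0.727 in neutrophil-marker cells. All 4 intervals overlapped one another. In Untreated the values were 0.0315, 0.144, 0.0728 and 1.08 CPM, on 3, 1, 1 and 6 UMIs. There the neutrophil-marker interval (0.396 to 2.35 CPM) lay above the epithelial-marker one (0.00650 to 0.0921 CPM). It overlapped those of fibroblast- and macrophage-marker cells. A class here is the range of a score over 6 fixed marker genes, not a cell type, and 198 AptCD4-LNT cells (2.24%) and 673 Untreated cells (3.36%) lay near a limit between classes. The mix among the 4 genes was 39.5% Cma1, 31.6% Mcpt4, 18.4% Tpsb2 and 10.5% Cpa3 outside, against 42.6, 17.0, 20.2 and 20.2% inside, in AptCD4-LNT.

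Mcpt8 did not behave in this way. Of its UMIs, 361 of 383 (94.3%) in AptCD4-LNT and 1187 of 1190 (99.7%) in Untreated lay outside the cells with 2 or more member genes. It accounted for 154 of 195 AptCD4-LNT and 582 of 598 Untreated cells with a single member. Of the single-member cells, 71.3% in AptCD4-LNT and 74.7% in Untreated were epithelial-marker cells, which made up 42.6% and 51.0% of cells and held 72.3% and 72.5% of all UMIs. Fibroblast-marker cells were 20.5% of them in AptCD4-LNT and 15.2% in Untreated, with 12.8% and 5.29% of all UMIs. Most Mcpt8 counts in these tumours thus lay in cells without a receptor chain or a granule protease.

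**Figure D4:**
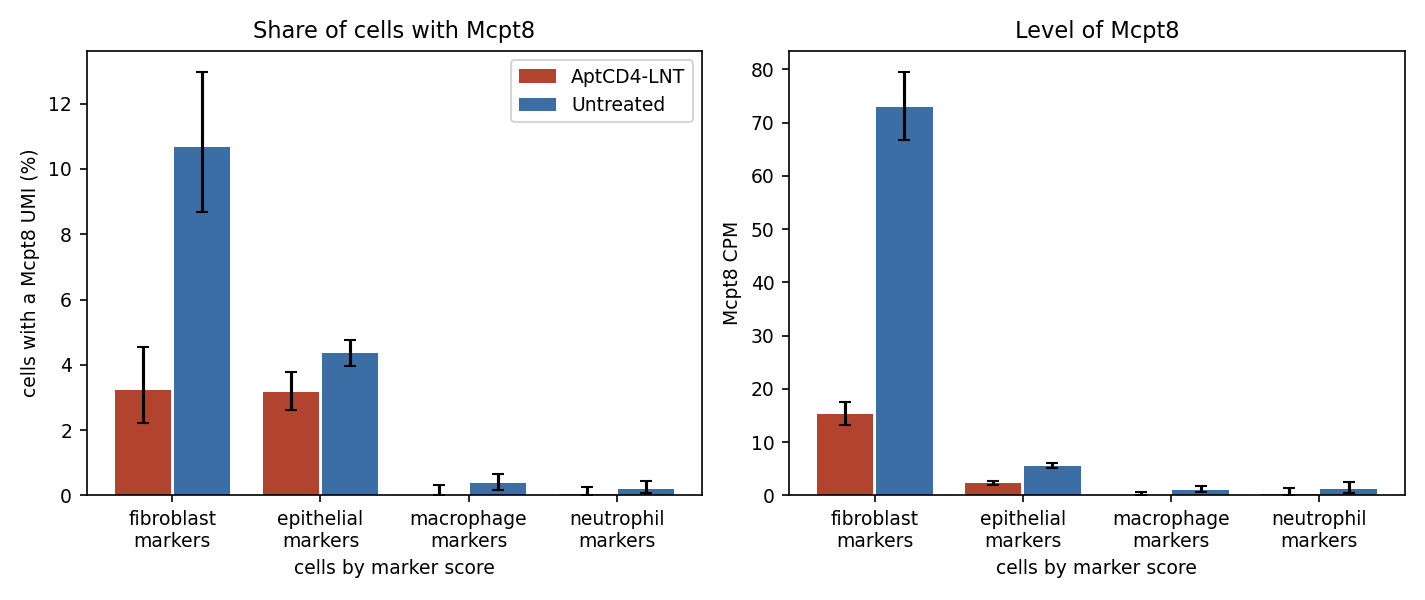
Share of cells with a UMI of Mcpt8 (left, percent) and level of Mcpt8 (right, CPM) by marker class and library, outside cells with 2 or more member genes, with exact 95% counting intervals. Cells without a class and the smaller classes are not shown. Fibroblast-marker cells stand highest in level, at 15.3 CPM in AptCD4-LNT and 72.9 CPM in Untreated, and macrophage- and neutrophil-marker cells are near 0.

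The level of Mcpt8 was highest in fibroblast-marker cells, and lower there in the AptCD4-LNT library. In AptCD4-LNT, 31 of 961 such cells (3.23%, 2.20 to 4.55%) held 193 UMIs, or 15.3 CPM. In Untreated, 90 of 842 (10.7%, 8.68 to 12.97%) held 506 UMIs, or 72.9 CPM. The log2 ratio of the level was -2.25 (-2.50 to -2.01) and the ratio of the shares 0.302 (0.194 to 0.458). Over 13785 genes in fibroblast-marker cells, 7.20% were 2-fold lower and 4.38% 2-fold higher. A single AptCD4-LNT cell held 95 of the 193 UMIs (49.2%) and the top Untreated cell held 60 (11.9%). Without the top cell of each library the levels were 7.78 CPM in AptCD4-LNT and 64.6 CPM in Untreated, a log2 ratio of -3.05.

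Other features of these cells moved with the library. Epithelial markers stood at 435 CPM in the fibroblast-marker cells of AptCD4-LNT and at 1172 CPM in those of Untreated, and the median depth was 12063 and 5946 UMIs. Among cells with no UMI of Krt8 or Krt18 the Mcpt8 levels were 25.9 CPM in AptCD4-LNT and 108 CPM in Untreated, a log2 ratio of -2.06. Thinned to 1000 UMIs per cell, which leaves out 44 AptCD4-LNT and 70 Untreated cells, a UMI of Mcpt8 remained in 4 of 917 in AptCD4-LNT (0.436%) and 32 of 772 in Untreated (4.15%).

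Epithelial-marker cells held as many Mcpt8 UMIs but spread thinly, with at most 5 in 1 cell. In AptCD4-LNT, 119 of 3764 (3.16%) held 162 UMIs, or 2.27 CPM, and in Untreated 444 of 10200 (4.35%) held 532, or 5.59 CPM. The log2 ratio was -1.30 (-1.56 to -1.04) and the ratio of shares 0.726 (0.588 to 0.891). Over 17670 genes in these cells, 4.66% were 2-fold lower and 3.21% 2-fold higher. Fibroblast markers stood at 213 CPM in the Mcpt8-positive and 246 CPM in all epithelial-marker cells of AptCD4-LNT, and at 163 and 113 CPM in those of Untreated. Their part in the Mcpt8 counts was not tested.

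The shares in other classes give a comparison for these values. The part of free RNA in any class was not tested. Macrophage-marker cells held Mcpt8 in 0 of 1120 cases in AptCD4-LNT, which allows up to 0.268% (3 counts as the floor). In Untreated they held it in 10 of 2749 (0.364%), with up to 5 UMIs in 1 cell. The median depths of macrophage-marker cells were 4459.5 and 3700 UMIs. Neutrophil-marker cells held Mcpt8 in 1 of 2181 cases in AptCD4-LNT (0.0459%) and 7 of 3390 in Untreated (0.206%). Their median depths were 1373 and 884 UMIs. At 1000 UMIs per cell the macrophage-marker share was 0 of 977 in AptCD4-LNT and 2 of 2583 (0.0774%) in Untreated. The epithelial-marker share at that depth was 7 of 3744 (0.187%) in AptCD4-LNT and 53 of 10051 (0.527%) in Untreated. Fibroblast-marker cells lay above both classes in Untreated. In AptCD4-LNT their 4 of 917 rest on too few UMIs to set them above the epithelial-marker share.

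Cells with 4 or more Mcpt8 UMIs were 13 in AptCD4-LNT and 46 in Untreated, and held 49.1% and 43.6% of its UMIs. Of them 9 and 38 were fibroblast-marker cells, while 2 of the 13 were Mcpt8 cells with a receptor chain and none of the 46 was. Hdc was seen in 2 of the 13 and 1 of the 46. Of the 46 Untreated cells, 4 had no class.

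Among the genes that went with Mcpt8 in fibroblast-marker cells were 3 granzymes of its own gene cluster, Gzme, Gzmd and Gzmc. On chromosome 14, RefSeq gives the order Cma1, Cma2, Mcpt1, Mcpt2, Mcpt9, Mcpt4, Mcpt8, Ctsg, Gzme, Gzmd, Gzmg, Gzmn, Gzmf, Gzmc and Gzmb. The granzymes are serine proteases best known from cytotoxic lymphocytes, and these genes were chosen after their values were seen. Gzme was seen in 71.0% (52.0 to 85.8%) of Mcpt8-positive and 2.69% of other fibroblast-marker cells in AptCD4-LNT, and in 77.8% (67.8 to 85.9%) and 8.24% in Untreated. Gzmd was seen in 48.4% against 1.08% in AptCD4-LNT and in 51.1% against 4.39% in Untreated. Both libraries thus showed the same pairing of Mcpt8 with Gzme and Gzmd in single fibroblast-marker cells. In epithelial-marker cells Gzme was seen in 19.3% of Mcpt8-positive and 2.11% of other cells in AptCD4-LNT, and in 17.6% and 3.18% in Untreated. Gzmd was seen there in 0% and 0.302% in AptCD4-LNT and in 0.676% and 0.308% in Untreated.

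Gzmc was seen in 41.9% of Mcpt8-positive and 2.90% of other fibroblast-marker cells in AptCD4-LNT, and in 22.2% and 3.46% in Untreated. Gzmb, the granzyme of activated killer cells at the far end of the cluster, did not follow, at 3.23% and 0.968% in AptCD4-LNT and 0% and 3.32% in Untreated. Gzmf was at 0 in all Mcpt8-positive fibroblast-marker cells of both libraries, and Gzmg was seen in 0 of them in AptCD4-LNT and 1 in Untreated. Mcpt4, the neighbour on the other side, was at 0 in all 31 and 90 Mcpt8-positive cells. T cell markers stood at 11.9 CPM in the Mcpt8-positive cells of AptCD4-LNT and 5.65 CPM in those of Untreated, against 28.7 and 26.9 CPM over all fibroblast-marker cells. Fibroblast markers were also lower in the Mcpt8-positive cells. They stood at 55620 against 76359 CPM over the class in AptCD4-LNT, and at 23161 against 50658 CPM in Untreated. Gzmd, Gzme and their neighbours are close in sequence, so counts could be divided among them.

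Mcpt8-positive cells were also deeper, with medians of 19408 UMIs against 11766 in other fibroblast-marker cells of AptCD4-LNT and 6958 against 5770.5 in Untreated. They held 5.33% of the UMIs of the class in AptCD4-LNT and 15.3% in Untreated. Of the Gzme UMIs of the class they held 88.8% and 80.4%, and of the Gzmd UMIs 89.0% and 75.2%. In AptCD4-LNT, the cell with 95 Mcpt8 UMIs alone held 345 of the 678 Gzme UMIs and 41 of the 164 Gzmd UMIs of the class. By that share Gzmd, Gzme and Gzmc were the 3 genes common to the top 10 of both libraries, 30% of each list. Crabp1, a retinoic acid binding protein gene, and Mmp13, a collagenase gene, were among the others in AptCD4-LNT at 41.8% and 34.3%, and Akr1c18, a steroid-metabolising enzyme gene, and Mmp3, a further matrix protease gene, in Untreated at 82.7% and 60.8%.

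**Figure D5:**
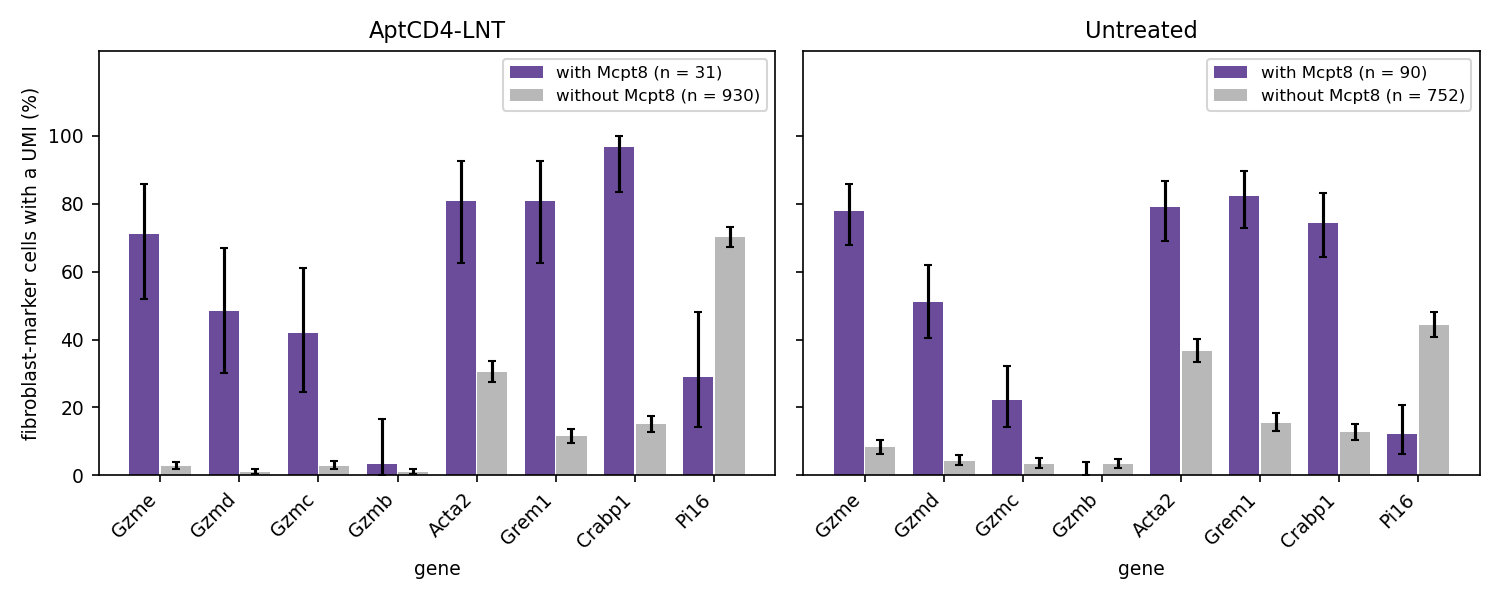
Share of fibroblast-marker cells with a UMI of each gene, for cells with and without Mcpt8, in AptCD4-LNT (left) and Untreated (right), with exact 95% counting intervals. Gzme, Gzmd, Gzmc, Acta2, Grem1 and Crabp1 are more often seen with Mcpt8 in both libraries, and Pi16 less often, at 29.0% against 70.3% and 12.2% against 44.4%.

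Stromal genes differed along the same line. Acta2, the smooth muscle actin of contractile fibroblasts, was seen in 80.6% of Mcpt8-positive and 30.5% of other fibroblast-marker cells in AptCD4-LNT, and in 78.9% and 36.7% in Untreated. Grem1, a secreted BMP antagonist, was seen in 80.6% and 11.5% in AptCD4-LNT and in 82.2% and 15.6% in Untreated. Pi16, a gene of adventitial fibroblasts, ran the other way, at 29.0% and 70.3% in AptCD4-LNT and 12.2% and 44.4% in Untreated. Over all fibroblast-marker cells Pi16 stood at 567 CPM in AptCD4-LNT and 303 CPM in Untreated, and Gzme at 53.8 and 188 CPM, so these genes differed between the libraries as well. The 53.8 CPM of Gzme rest in large part on the 1 cell named above. The part of these genes in the lower Mcpt8 level of AptCD4-LNT was not tested. No fibroblast-marker cell held 2 of the 7 genes. In the 31 AptCD4-LNT and 90 Untreated fibroblast-marker cells with Mcpt8, Fcer1a, Ms4a2 and Cd200r3 were at 0, Gata2 was seen in 0 and 1 cells and Hdc in 0 and 1.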

How the data were processed

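Each library is a deposited matrix of counts, UMIs per gene and cell barcode. Per the submitters' processing notes, Cell Ranger 7.2.0 and the GRCm39 genome were used, and how barcodes were called as cells is not given in the sources used here. A barcode needed 200 genes or more and no more than 20% mitochondrial UMIs, and 78 AptCD4-LNT and 39 Untreated barcodes failed. Doublets were marked with Scrublet (scanpy 1.11.5, Python 3.11.15) in 2.26% of AptCD4-LNT and 7.45% of Untreated cells, kept in the main results and removed as an alternative.

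A cell's class is the highest mean log2(1 + UMIs per 10000) over 6 markers, with 2 or more detected and a lead of 0.3. CPM are UMIs per 1000000. Intervals are exact (Clopper-Pearson for shares, Poisson for counts, conditional binomial for ratios) and cover counting error only. On simulated counts for 20033 genes, 95.7% of whole-library intervals covered the set ratio.

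The members and lists were chosen with earlier results of these data known. Named genes are the 7 members, listed pathway genes with 10 or more UMIs in member cells, and the 10 genes nearest to each kind of cell. Genes named beyond this rule were chosen after their values were seen. RefSeq tables of GRCm38.p6 gave promoters and gene order. The windows of Fcer1a, Ms4a2, Gzme and Gzmd are not printed, and Tpsb2 was not matched. Alternatives covered filters, doublets, depth, scaling, the number of genes needed, class limits and the denominator.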

Additional observations from a re-analysis of the deposited data

How the results depend on the processing

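No paired analysis was possible because each group has 1 library. Of 71 alternatives for 24 values, 64 stayed within the interval of the value reported, 6 moved out of it and 1 reversed. The ratio of shares of cells with 2 or more member genes ranged from 6.25 (thinned to 1000 UMIs, 3 AptCD4-LNT cells against 1 Untreated cell, with an interval of 0.502 to 328 that includes 1) to 22.6 (with 4 or more member UMIs). Thinned to 1000 UMIs, the share of granule-protease cells in AptCD4-LNT was 0.0367%, on 3 cells: of the 9, 5 are under that depth and left out, and 1 no longer met the rule. The stricter cell filter (500 genes, 10% mitochondrial) left 5 of the 9, a share of 0.0602%. Thinning left 0 AptCD4-LNT and 1 Untreated Mcpt8 cells, which reversed that ratio to 0, and it gave ratios for the share with Mcpt8 of 0.105 in fibroblast-marker and 0.355 in epithelial-marker cells. Without the top cell of each library the log2 ratio of Mcpt8 in fibroblast-marker cells was -3.05. Counting cells with 3 or more member genes put 72.2% of Ms4a2 UMIs outside them in place of 38.9%, and 99.8% of Mcpt8 UMIs in place of 98.4%. The alternatives for Mcpt8 by class, and the counts by 4 or more UMIs or by basophil genes, were chosen after seeing the data. With 3 mixed tumours a library and no replicate, variation between mice could not be measured, and counts of a few UMIs limit every statement on Fcer1a and Ms4a2.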
